A study of Mus musculus with 11 samples.

Results

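The genes described are those of the NMDA receptor subunits, the glutamate-gated, calcium-permeable channels of excitatory synapses. They were taken by symbol (Grin1, Grin2a, Grin2b, Grin2c, Grin2d and Grin3a), with earlier results of these data known. All 6 were found among the 30681 genes of the deposited table. All 6 passed the filter on low counts that left 16587 genes. An NMDA receptor is built from the obligatory GluN1 subunit, encoded by Grin1, which binds the co-agonist glycine or D-serine, and from GluN2 subunits, encoded by Grin2a to Grin2d, which bind glutamate. GluN3 subunits bind glycine, and receptors that hold GluN3A pass less calcium. In the hippocampus the receptor is best known for its part in long-term potentiation, and GluN2B, prominent early in life, is joined by GluN2A as the brain matures, while GluN2D is found mainly in interneurons.

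RNA was measured by sequencing the polyadenylated RNA of the hippocampus of mice aged 6 months, each library from 1 hippocampus. There were 6 libraries of the genotype labelled as conditional knockout of the doublecortin-like kinase gene Dclk3 (cKO) and 5 libraries labelled WT, with no other treatment or allele in the labels. Not given in the sources used here were the recombinase line, the deleted part of Dclk3 and whether each animal gave only 1 library. The p-values below therefore speak of the spread between these samples, which may be technical. Library totals ran from 24001828 to 35674490 counts.

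Dclk3 itself averaged 20.1 ± 3.44 CPM (counts scaled to a common library size; SD, n = 6) under the cKO label and 22.4 ± 3.31 CPM under WT (SD, n = 5). Its log2 fold change of -0.15 ± 0.12 (SE) missed the threshold (edgeR, quasi-likelihood, Benjamini-Hochberg adjusted p = 0.727). The group is therefore called "labelled cKO", and each direction below is that of the labels. Xist and 4 Y-linked transcripts marked all 6 libraries labelled cKO and WT replicates 2 and 5 as male and WT replicates 1, 3 and 4 as female, so the sexes were not balanced. Markers of the dentate granule layer summed to 381 to 508 CPM, those of CA1 pyramidal cells to 669 to 840 CPM, those of cerebellar granule cells to 2.32 to 10.7 CPM and those of thalamus to 92.2 to 133 CPM. Group means of single thalamic markers ran from 1.79 to 36.8 CPM, so a few genes carried most of that sum. The lists differ in their genes, so the sums do not compare amounts of tissue. In bulk tissue, fewer cells of a type and less RNA per cell cannot be told apart.

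The coding sequences of the subunits are related, which bears on whether reads of one could be counted for another. Over the aligned coding bases Grin2a and Grin2b were 61.5% identical and Grin2c and Grin2d 60.8%, whereas Grin1 was 40.3% to 45% identical to the other 5 and Grin3a 40.3% to 43.5%. No run of 50 bases in the transcripts of any member occurred in the transcripts of another member.

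Some sequence was shared with genes outside the family. Of the distinct 50-base windows of Grin2a 11.57% occurred elsewhere, nearly all in the processed pseudogene Gm7328, which had 0 to 3 counts per library. Of those of Grin2d 7.57% lay in the antisense gene Gm45441, which shares 643 exon bases with Grin2d and had 150 to 223 counts per library against 334 to 546 for Grin2d. Grin1 shares 1307 exon bases with its antisense gene Grin1os, which had 0 to 4 counts. Whether the authors counted by strand is not given in the sources used here, so the level of Grin2d is uncertain by what Gm45441 could add or remove. Grin3a had no window in another gene.

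The question of the design was whether the subunit genes differ between the genotypes. No subunit differed beyond the spread between libraries. The groups overlapped for each of the 6, as they did for most genes: 0.916% of all tested genes had groups that did not overlap. Grin2b and Grin2d had the smallest p-values, with opposite signs. By edgeR 0 of 6 members were called at an adjusted p under 0.05, where 0% of the 16587 tested genes were called, and 0 of 6 had an unadjusted p under 0.05, where 9.19% of all tested genes did. DESeq2 also called 0 of the 6, against 0.374% of all tested genes. Of the members 3 had higher and 3 lower values in the libraries labelled cKO, with a median log2 fold change of 0.02 against -0.0001 over all tested genes.

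Grin1 (ENSMUSG00000026959, chromosome 2, 25291181 to 25319187, minus strand, mm10) had 431, 405, 450.5, 510.3, 429.5 and 438 CPM in replicates 1 to 6 labelled cKO and 437, 437, 420.0, 495 and 482.5 CPM in WT replicates 1 to 5. Replicate 4 of either group was the highest of its group, and the ranges of the groups overlapped over most of their width. Labelled cKO minus WT, the log2 difference came to -0.03 ± 0.06 (SE), and its 95% limits were -0.16 and 0.09 (edgeR, adjusted p = 0.907). These limits are fold changes of 0.895 and 1.07.

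Grin2a (ENSMUSG00000059003, chromosome 16, 9567898 to 9995560, minus strand) had 219, 204, 172, 181, 219.9 and 216 CPM in replicates 1 to 6 labelled cKO and 176, 218, 202, 182.5 and 197 CPM in WT replicates 1 to 5. Replicates 3 and 4 labelled cKO were low, beside WT replicates 1 and 4, and the other libraries were at or above 197 CPM. Labelled cKO minus WT, the log2 difference came to 0.05 ± 0.07 (SE), and its 95% limits were -0.10 and 0.20 (edgeR, adjusted p = 0.884). GluN2A gives receptors with fast kinetics and is the main GluN2 subunit that joins adult synapses.

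Grin2b (ENSMUSG00000030209, chromosome 6, 135713233 to 136173511, minus strand) had 495, 458, 384, 392, 479 and 439.7 CPM in replicates 1 to 6 labelled cKO and 392, 453, 416, 400.3 and 437 CPM in WT replicates 1 to 5. The same 4 libraries as for Grin2a were the lowest, and replicates 1, 2 and 5 labelled cKO stood above every WT library. Labelled cKO minus WT, the log2 difference came to 0.07 ± 0.07 (SE), and its 95% limits were -0.07 and 0.21 (edgeR, adjusted p = 0.780). GluN2B carries the binding site for CaMKII, the kinase of long-term potentiation, in its long cytoplasmic tail.

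The signs of Grin2a and Grin2b turned when sex was taken into account. In WT the 3 female libraries had 392 to 416 CPM of Grin2b and the 2 male ones 437 to 453 CPM. For Grin2a they had 176 to 202 CPM and 197 to 218 CPM. With a sex term the genotype difference was -0.04 ± 0.09 for Grin2a and -0.01 ± 0.09 for Grin2b (log2 ± SE). In the 8 male libraries it was -0.04 ± 0.10 and -0.01 ± 0.09. All female libraries are WT, so both fits compare the same male libraries, of which 2 are WT, and are not separate results. The sex difference, male minus female, was 0.15 ± 0.10 for Grin2a and 0.14 ± 0.10 for Grin2b (log2 ± SE; edgeR, adjusted p = 0.981 for both), and passed in neither.

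Grin2c (ENSMUSG00000020734, chromosome 11, 115249169 to 115267243, minus strand) varied least. It had 86.4, 85.0, 75.6, 84.3, 86.4 and 74.8 CPM in replicates 1 to 6 labelled cKO and 85.0, 84.0, 80.9, 79.2 and 84.5 CPM in WT replicates 1 to 5. Replicates 3 and 6 labelled cKO were the lowest libraries, and the other 9 lay between 79.2 and 86.4 CPM. Labelled cKO minus WT, the log2 difference came to -0.01 ± 0.05 (SE), and its 95% limits were -0.11 and 0.09 (edgeR, adjusted p = 0.970). Its coefficient of variation over the 11 libraries was 5.04%, against 7.37% for Grin1 and 14.8% for Grin3a. GluN2C is best known from cerebellar granule cells, whose markers had summed levels of 2.32 to 10.7 CPM here.

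Grin2d (ENSMUSG00000002771, chromosome 7, 45831883 to 45878378, minus strand) had 15.5, 12.5, 15.5, 12.7, 15.7 and 11.9 CPM in replicates 1 to 6 labelled cKO and 15.3, 14.3, 14.99, 16.3 and 16.3 CPM in WT replicates 1 to 5. Replicates 2, 4 and 6 labelled cKO lay below every WT library, and replicates 1, 3 and 5 stood among them. Labelled cKO minus WT, the log2 difference came to -0.14 ± 0.08 (SE), the largest of the 6 in size, and its 95% limits were -0.32 and 0.03 (edgeR, adjusted p = 0.617). The antisense gene Gm45441 averaged 5.91 ± 0.594 CPM under the cKO label (SD, n = 6) and 5.90 ± 0.461 CPM under WT (SD, n = 5).

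Grin3a (ENSMUSG00000039579, chromosome 4, 49661611 to 49845744, minus strand) had the same division. It had 57, 40.8, 55.1, 37.9, 53.8 and 36.6 CPM in replicates 1 to 6 labelled cKO and 43.2, 43.9, 45.3, 46.6 and 48.3 CPM in WT replicates 1 to 5. Replicates 1, 3 and 5 labelled cKO lay above every WT library and replicates 2, 4 and 6 below every one. The means were therefore close, with a log2 fold change of 0.04 ± 0.12 (SE) and a 95% interval from -0.22 to 0.30 (edgeR, adjusted p = 0.948). GluN3A lowers the calcium flow of the receptor and restrains the maturation of spines.

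**Figure D1:**
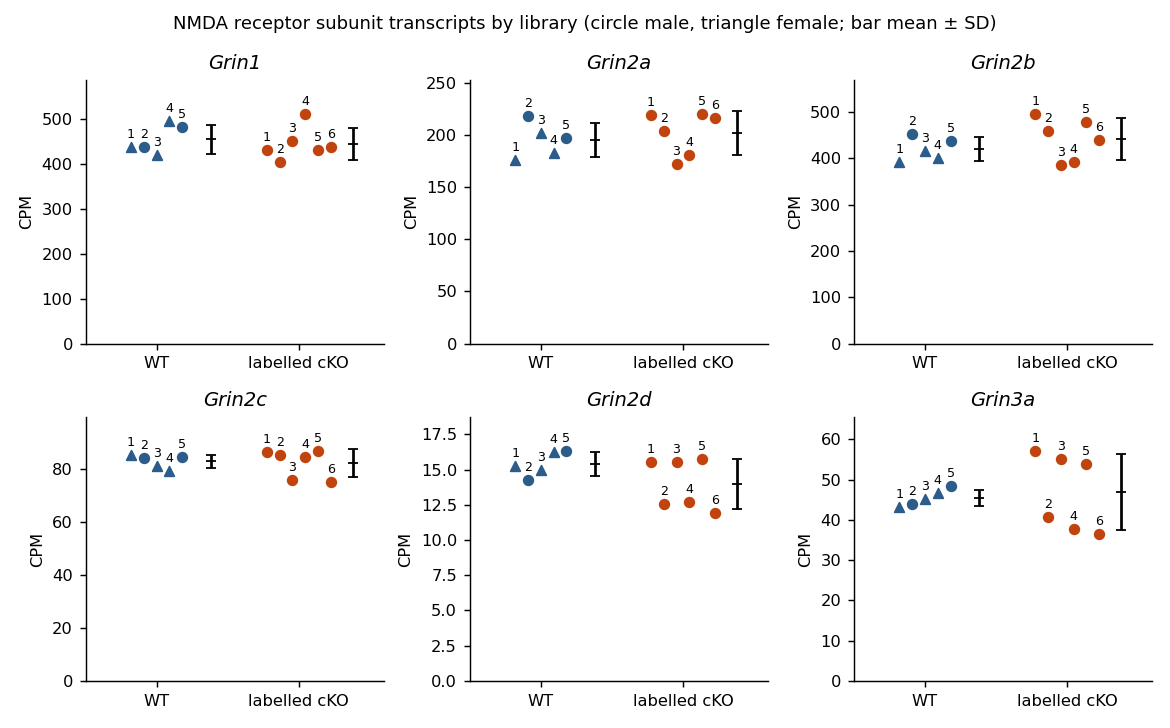
Level of each subunit transcript (vertical axes, CPM, from 0) in each library, by group, with replicate numbers, circles for male and triangles for female libraries, and the mean ± SD at the right of each group. Grin3a in the libraries labelled cKO fell into 36.6 to 40.8 CPM and 53.8 to 57 CPM, with WT at 43.2 to 48.3 CPM between them.

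**Figure D2:**
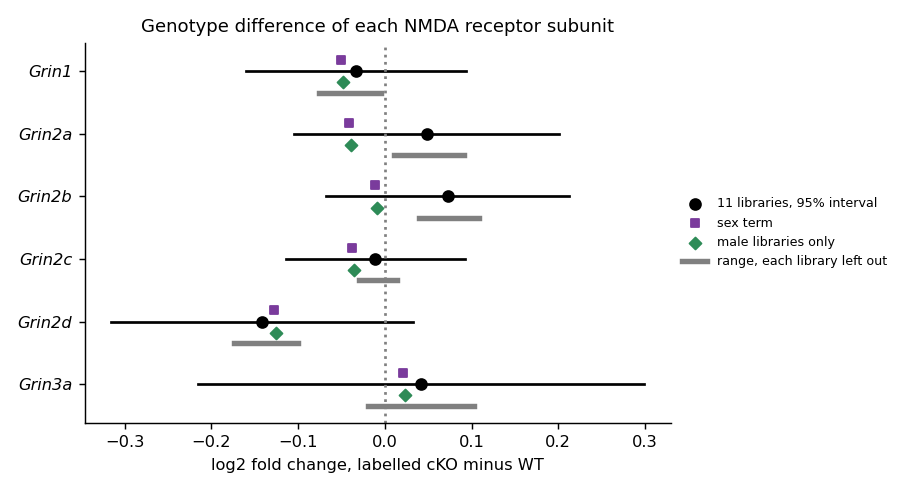
Log2 fold change of each subunit, labelled cKO minus WT (horizontal axis), from 11 libraries with its 95% interval (black), with a sex term (square), in the 8 male libraries (diamond) and as a range over fits that leave out 1 library each (grey). Every interval of the 11 libraries includes 0, and Grin2a and Grin2b change sign with the sex term and in the male libraries. Both of these fits compare the same male libraries, since all female libraries are WT.

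The spread among the libraries labelled cKO was wider than in WT for Grin3a. The SD of its log2 CPM was 0.29 under the cKO label and 0.07 under WT, a ratio of 4.49. A larger ratio was seen in 0.838% of the 16587 tested genes, whose median ratio was 1.17. Grin2d had a ratio of 2.27, exceeded by 9.69% of the genes, and Grin1 one of 1.09, exceeded by 55.7%. This measure was chosen after the values had been seen and is a description without a test.

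Of 9 lists of cell and tissue markers, 4 (astrocyte, interneuron, CA1 pyramidal and microglia) also divided replicates 2, 4 and 6 from replicates 1, 3 and 5 without overlap. This division was taken from the values of Grin2d and Grin3a after they had been seen. The share of all tested genes that divide in the same way is not given here, so the count of lists has no background. The astrocyte marker score (mean centred log2 CPM of 8 genes) was 0.30, 0.10 and 0.34 in replicates 2, 4 and 6 labelled cKO, and -0.07, -0.005 and -0.001 in replicates 1, 3 and 5. In WT it ran from -0.22 to 0.02. The interneuron marker score, over 11 genes, was -0.12, -0.02 and -0.08 in replicates 2, 4 and 6 and 0.001, 0.18 and 0.02 in replicates 1, 3 and 5. In WT this score ran from -0.076 to 0.061. For CA1 markers, over 5 genes, it was -0.076, -0.025 and 0 against 0.056, 0.105 and 0.085, with WT from -0.172 to 0.085. For microglia markers, over 6 genes, it was 0.462, 0.140 and 0.095 against -0.180, 0.041 and -0.023, with WT from -0.209 to 0.008. Among the libraries labelled cKO, astrocyte and microglia markers were thus higher, and interneuron and CA1 markers lower, in those with low Grin2d and Grin3a. Astrocyte markers summed to 9793 to 12090 CPM under the cKO label and to 8136 to 9480 CPM under WT. All 8 had higher values, 4 with an unadjusted p under 0.05, beside 9.19% of all tested genes, and 0 called by edgeR. Microglia markers summed to 397 to 592 CPM and 397 to 443 CPM, with all 6 higher, 3 with an unadjusted p under 0.05 and 0 called by edgeR. Thalamic markers went mostly the other way, with 7 of 10 lower and 3 higher under the cKO label. Of the 10, 4 had an unadjusted p under 0.05, all of them lower, and 0 were called by edgeR. The groups did not overlap for 2 of the 10, beside 0.916% of all tested genes. Interneuron markers summed to 1022 to 1317 CPM and 1091 to 1232 CPM, and CA1 markers to 713 to 839.7 CPM and 668.5 to 813 CPM. No marker of these lists was at 0 in all libraries. No correlation of a marker score with Grin2d or Grin3a passed after adjustment over 60 relations. The smallest p for Pearson's r was that of the astrocyte score with Grin2d. This r was -0.866 (permutation p = 0.00096, adjusted 0.0576), and Spearman's rho was -0.745 (permutation p = 0.011, adjusted 0.132). Without replicates 2 and 6 labelled cKO r was -0.61. The part of any of these lists in the values of Grin2d and Grin3a was not tested further. Since the libraries formed separate sets for Grin2d and Grin3a, no correlation between these genes is given.

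Grin2a and Grin2b went together from library to library. Over the 11 libraries Pearson's r of their log2 CPM was 0.918 (permutation p = 0.00023, adjusted over 15 pairs of members 0.00345) and Spearman's rho was 0.945 (permutation p = 7e-05, adjusted 0.00105). Without replicate 3 labelled cKO and WT replicate 1, the libraries farthest from the median of Grin2a, r was 0.876. Within the 8 male libraries it was 0.916 and within the 6 labelled cKO it was 0.932. Grin1 had an r of -0.521 with Grin2a and -0.523 with Grin2b (permutation p = 0.105 and 0.103, adjusted 0.392 for both; rho = -0.527 and -0.609, permutation p = 0.101 and 0.0525, adjusted 0.302 and 0.263), and neither passed. These were -0.292 and -0.271 without replicate 4 of either group, -0.583 and -0.647 in the 8 male libraries and -0.602 and -0.696 in the 6 labelled cKO.

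**Figure D3:**
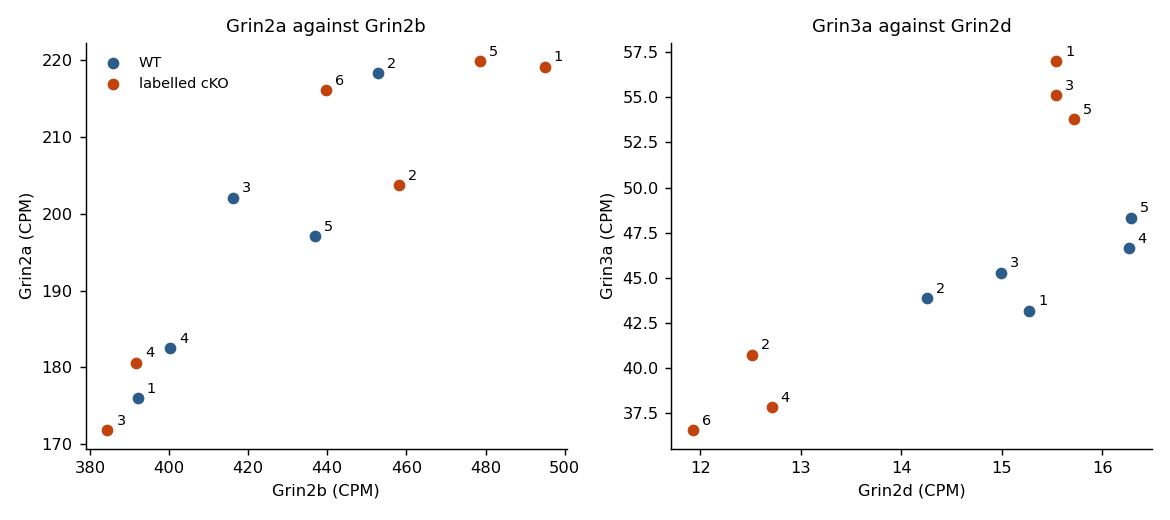
Level of Grin2a against Grin2b (left) and of Grin3a against Grin2d (right), in CPM on axes that do not start at 0, 1 point per library with its replicate number, by group. Grin2a and Grin2b went together with r of 0.918, and replicates 2, 4 and 6 labelled cKO stand apart at the lower left of the plot of Grin3a.

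A measure of base composition was set beside the members. Each library's tendency towards GC-rich genes was taken as Spearman's rho, across 16553 genes, between a gene's deviation in that library and its transcript GC content; the lowest was -0.335 (replicate 5 labelled cKO) and the highest 0.354 (WT replicate 4). Over libraries this measure had an r of -0.821 with Grin2a, -0.799 with Grin2b and 0.757 with Grin1 (permutation p = 0.00328, 0.00452 and 0.00684; adjusted over 60 relations 0.0904, 0.0904 and 0.103; rho = -0.827, -0.764 and 0.718, permutation p = 0.00253, 0.00857 and 0.0163, adjusted 0.132, 0.132 and 0.163). Without replicate 5 labelled cKO and WT replicate 4 these were -0.803, -0.760 and 0.707, and in the 8 male libraries -0.791, -0.836 and 0.809. None of the 60 relations passed after adjustment. The longest transcripts of Grin2a and Grin2b are 44.8% and 45.7% GC, that of Grin1 59.4%. The most GC-rich members, Grin2c at 62.1% and Grin2d at 65%, did not follow this order, with an r of -0.298 and 0.076 (permutation p = 0.37 and 0.822, adjusted 0.642 and 0.914; rho = -0.355 and 0.109, permutation p = 0.289 and 0.752, adjusted 0.642 and 0.868). Grin3a, at 49.2% GC, had an r of -0.312 (permutation p = 0.346, adjusted 0.63; rho = -0.291, permutation p = 0.388, adjusted 0.695). Without the same 2 libraries the r of Grin2c, Grin2d and Grin3a was -0.056, 0.021 and -0.259, and in the male libraries -0.374, -0.231 and -0.400. Marker scores were also among these relations. The dentate granule score had an r of 0.425 with Grin2a and 0.28 with Grin2b (permutation p = 0.196 and 0.407, adjusted 0.551 and 0.679). In the 8 male libraries this r was 0.929 and 0.807. For the striatal score r was -0.652 and -0.593 (permutation p = 0.0317 and 0.0563, adjusted 0.237 and 0.338), and -0.713 and -0.721 in the male libraries. The part of base composition or of these markers in the values was not tested further. As a description without a test, r of Grin2a and Grin2b was 0.764 after a straight-line fit on the GC measure was removed from both.

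The genes whose log2 CPM was most like that of a member over the 11 libraries were taken as the 3 with the highest r among 16586. For Grin1 they were Mta1, a subunit of the NuRD chromatin complex (0.946), Ubald1 (0.943) and Tmem151a (0.939). For Grin2a they were Gt(ROSA)26Sor, a noncoding transcript (0.958), Zfp207 (0.952) and Rmnd5a (0.950), and for Grin2b Spire1, an actin nucleator (0.951), Wdr13 (0.939) and Man1a2, a mannosidase (0.936). The gene models Gm38228 (0.942), Gm49338 (0.912) and Gm38057 (0.898) came nearest to Grin2c. For Grin2d they were Aloxe3, a lipoxygenase-family enzyme (0.947), Mfge8, a secreted glycoprotein (0.924), and Adcy8, a calcium-stimulated adenylyl cyclase (0.923). For Grin3a they were Gda, guanine deaminase (0.954), Elac1, an RNA-processing nuclease (0.939), and Slc6a11, a GABA transporter (0.931). These values are the highest of many and carry no test.

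To compare levels between subunits, counts were scaled by exon length, as CPM per kb of the gene's merged exons. Grin1 was highest at 46.3 ± 3.41 CPM per kb (SD, n = 11), followed by Grin2b at 17.4 ± 1.51, Grin2c at 16.4 ± 0.825, Grin2a at 11.1 ± 1.03, Grin3a at 3.77 ± 0.556 and Grin2d at 2.20 ± 0.235 CPM per kb. The ranges of neighbours in this order did not overlap, except those of Grin2b and Grin2c, where Grin2b was above in 9 of 11 libraries. Grin1 made up 47.7% ± 2.85 of the 6 genes' summed level, and its level was 0.989 ± 0.116 times the summed level of the 4 Grin2 genes (SD, n = 11). That ratio was 0.935 ± 0.123 per kb of coding sequence and 2.07 ± 0.243 per kb of the longest transcript, so its size depended on the length used.

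The place of Grin2c in the order of levels also depended on the length. The merged exons of Grin2b span 24.8 kb and its coding sequence 4.45 kb, against 5.04 and 3.72 kb for Grin2c. Per kb of coding sequence, Grin2b was at 97.04 ± 8.44 CPM, Grin2a at 45.3 ± 4.21 CPM and Grin2c at 22.2 ± 1.12 CPM (SD, n = 11), and Grin2c lay below Grin2a in all 11 libraries. Per kb of the longest transcript Grin2c lay above Grin2a in all 11. The first place of Grin1 and the last of Grin3a and Grin2d held under the 3 lengths. Counts from untranslated exons are included in each case, and the reads were not assigned to isoforms.

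**Figure D4:**
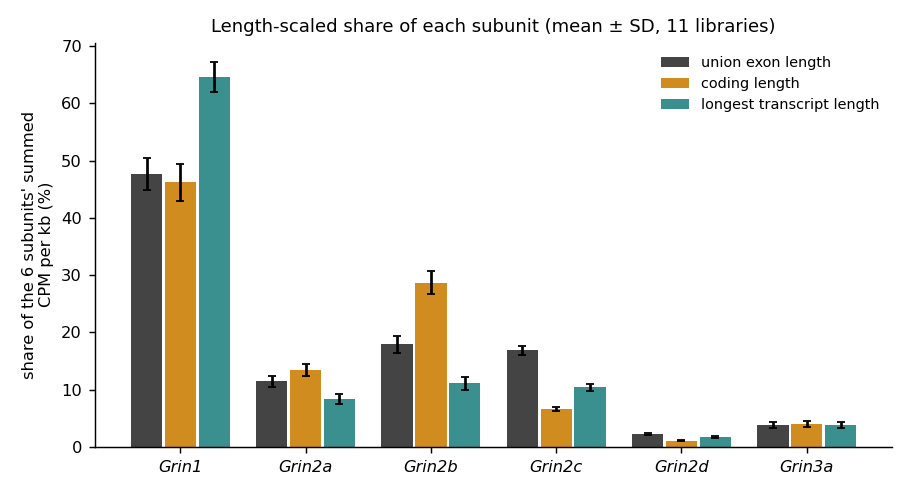
Share of each subunit in the summed CPM per kb of the 6 genes (vertical axis, percent; mean ± SD over 11 libraries), for 3 definitions of gene length. Grin1 takes 46.2% to 64.7% and Grin2c 6.57% to 16.9% depending on the length.

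The ratio of Grin2a to Grin2b, the usual summary of the adult make-up of the receptor, did not differ beyond the spread between libraries. Per merged exon length it was 0.614, 0.616, 0.619, 0.639, 0.636 and 0.681 in replicates 1 to 6 labelled cKO and 0.622, 0.668, 0.673, 0.632 and 0.625 in WT replicates 1 to 5. The groups overlapped, with means of 0.634 ± 0.0252 (SD, n = 6) and 0.644 ± 0.0244 (SD, n = 5). The difference in log2 ratio was -0.02 (2-sided exact permutation p = 0.567 over 462 splits). On the log2 scale the SD of the ratio was 0.06 and 0.05, against 0.15 and 0.12 for Grin2a (labelled cKO and WT).

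The shares of the 4 GluN2 genes were compared as a description, with no test. Of their summed level per kb of merged exons, Grin2b took 37.4% ± 1.19 under the cKO label and 36.3% ± 0.691 under WT, Grin2c 34.4% ± 1.97 and 35.3% ± 1.44, Grin2a 23.7% ± 1.24 and 23.4% ± 1.143, and Grin2d 4.45% ± 0.609 and 4.99% ± 0.423 (SD, n = 6 and 5). Each difference was smaller than the SD of the labelled cKO group, but those of Grin2b and Grin2d were larger than the SD of WT. The summed NMDA subunits stood at 0.420 ± 0.0141 times the summed AMPA receptor pore subunits Gria1 to Gria4 under the cKO label and 0.424 ± 0.0232 times under WT, per kb of merged exons. The AMPA genes had log2 fold changes from -0.04 to 0.02, and none was called.

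The remaining genes with an NMDA receptor name were Grin3b and Grina. Grin3b, the GluN3B gene known from motor neurons, had 1 to 9 counts per library and did not pass the filter. It shares 1059 exon bases with Tmem259, which had 1997 to 3192 counts per library. Grina, which encodes a membrane protein that is not a receptor subunit, averaged 331 ± 34.5 CPM under the cKO label and 339 ± 30.6 CPM under WT (SD, n = 6 and 5; log2 fold change -0.03 ± 0.07 SE; edgeR, adjusted p = 0.921).

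Genes that supply or clear the receptor's agonists came next, in a list of 16 of which 14 were tested. By edgeR 0 were called, 10 lay higher and 4 lower, and their median on the log2 scale was 0.04. An unadjusted p under 0.05 was found for 3, Slc1a2, the main glutamate transporter of astrocytes (0.22 ± 0.07), Shmt1, a cytosolic enzyme that interconverts serine and glycine (-0.46 ± 0.14), and Slc1a4, a transporter of neutral amino acids including serine (0.11 ± 0.05; log2 ± SE, edgeR, adjusted p = 0.404, 0.405 and 0.526). Srr, the enzyme that makes D-serine, was at 0.08 ± 0.04 (adjusted p = 0.572). Slc1a2 also belongs to the astrocyte markers, all 8 of which had higher values. So does Slc1a3 of the same list, at 0.06 ± 0.06 (log2 ± SE, edgeR, adjusted p = 0.803).

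Of 21 scaffolds and anchoring partners, 16 had higher and 5 lower values, with a median log2 fold change of 0.05 and 0 called by edgeR. The smallest p-values were those of Yes1, a Src-family kinase (0.13 ± 0.06), Akap9, an anchoring protein of protein kinase A (0.11 ± 0.06), Lin7b, a PDZ protein (-0.09 ± 0.05), and Nefl, the neurofilament light chain (0.12 ± 0.07; log2 ± SE, edgeR, adjusted p = 0.539 to 0.607). Of these 1, Yes1, had an unadjusted p under 0.05.

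Of 24 kinases, phosphatases and calcium-signalling genes, 16 had higher and 8 lower values, with a median of 0.02 and 0 called by edgeR. Rasgrf2, a calcium-dependent Ras activator, was at -0.19 ± 0.08 and had the 1 unadjusted p under 0.05. Ppp3cb, a catalytic subunit of calcineurin, was at 0.10 ± 0.05, Ptpn5, the phosphatase STEP that acts on GluN2B, at 0.08 ± 0.05, and Csnk2a1, a catalytic subunit of casein kinase, at 0.07 ± 0.05 (log2 ± SE; edgeR, adjusted p = 0.501 to 0.699).

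Of 12 genes of receptor trafficking and transcription, 7 had higher and 5 lower values, with a median of 0.01 and 0 called by edgeR. Rest, a repressor of neuronal genes, was at -0.31 ± 0.11, Kif5b, a kinesin heavy chain, at 0.13 ± 0.05, Kif17, the kinesin that carries GluN2B, at 0.28 ± 0.11, and Apba1, an adaptor between Kif17 and its cargo, at 0.10 ± 0.05 (log2 ± SE; edgeR, adjusted p = 0.441 to 0.552). The first 3 had an unadjusted p under 0.05. Over the 4 lists 8 of 71 tested genes did so, 11.3%, beside 9.19% of all tested genes.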

How the data were processed

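Per the labels' protocols, polyadenylated RNA of 11 hippocampi was made into strand-marked (dUTP) libraries. Reads were handled with bcl2fastq 2.17.1.14 and the mm10 build, per the submitters' processing notes. Not given in the sources used here were the aligner, counter, annotation and strand setting. The values are raw gene counts as the authors deposited them; 30566 of 30681 Ensembl IDs matched a symbol. Here, genes were filtered with filterByExpr, scaled by TMM and tested with edgeR 4.0.16 (quasi-likelihood, robust, 2-sided, genotype only, Benjamini-Hochberg over 16587 genes, threshold 0.05; R 4.3.3). CPM are relative to TMM-scaled totals. Log2 CPM used a prior count of 2. Standard errors come from the fold change and F, and permutation p-values for correlations from 100000 resamples. Lengths, positions and transcript sequences are from GENCODE M21 (mm10); identities are from a codon-wise alignment (mafft). The most alike replicates differed by a chi-square of 5.31 per degree of freedom, so all were kept. Alternatives included DESeq2 1.42.0 and limma 3.58.1. Tests were tried on simulated counts. Members and lists were chosen with earlier results of these data known. Genes named are the members, Grin3b, Grina, Dclk3, up to 4 members of smallest p in each pathway list (AMPA genes as a range), the 3 genes most like each member, and genes sharing sequence. Slc1a3 is named as a gene of 2 lists. Kainate genes and the other marker lists are not described gene by gene. A stretch of coding sequence compared between the members is not reported here.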

Additional observations from a re-analysis of the deposited data

How the results depend on the processing

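No member was called in any of 114 refits, 19 per member, where the lowest adjusted p was 0.416 (edgeR, Grin2d with 1 library left out). The sign of the log2 fold change turned in 9. Grin2a went to -0.0412 with a sex term and -0.0388 in the male libraries, and Grin2b to -0.0119 and -0.0096. Both of these fits compare the same male libraries. Grin2c went to 0.0131 with the replicate number as a block. Leaving out 1 library gave ranges of -0.0761 to -0.004 (Grin1), 0.0104 to 0.0916 (Grin2a), 0.0394 to 0.1091 (Grin2b), -0.0298 to 0.0141 (Grin2c), -0.1744 to -0.1004 (Grin2d) and -0.0198 to 0.1026 (Grin3a). Grin2c turned without replicate 3 (0.0119) or 6 (0.0141) labelled cKO, and Grin3a without replicate 1 (-0.0198) or 3 (-0.0112). The cause was not tested. The ratio of Grin2a to Grin2b kept its sign, from -0.0426 to -0.0059. Over all genes, 0 were called by edgeR, 1 with library totals as scaling, 3 without the filter, 62 by DESeq2 and 0 to 14 with 1 library left out, 14 being without WT replicate 5. With the replicate block no gene was called. Same-numbered libraries had correlations of their deviations from -0.316 to 0.213. Differently numbered libraries were not compared, so these values cannot tell whether the numbers pair the libraries. Library totals as scaling moved the median of all genes by -0.0285 on the log2 scale. Residual correlations and those in subsets were added after the data were seen. Depth limits Grin3b (1 to 9 counts).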
